A study of Mus musculus with 12 samples.

Results

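The circadian clock genes described here were 10 genes of the molecular clock, chosen by their gene symbols among the 53882 gene entries of the heart expression table: the activators Arntl, Clock and Npas2, the repressors Per1, Per2, Per3 and Cry2, the nuclear receptors Nr1d1 and Nr1d2, and the output factor Dbp. All 10 were found, and all 10 passed the filter on low values that left 13392 genes for testing (a normalized count of at least 10 in at least 3 libraries). Heart RNA of 12 C57BL/6 mice, 4 months old by their labels, was sequenced with 1 library per animal and 3 animals in each of 4 groups. CIP-OE-TAC and CIP-OE-Sham mice carried the CIP-KI-flox allele, which encodes cardiac ISL1-interacting protein behind a floxed stop, together with aMHC-Mer-Cre-Mer, a tamoxifen-dependent Cre recombinase driven in cardiomyocytes by the alpha myosin heavy chain promoter. Ctrl-TAC and Ctrl-Sham mice were littermates with CIP-KI-flox and no Cre. In TAC (transverse aortic constriction) a band around the aorta raises the pressure against which the heart pumps. Sham mice had surgery without it. Hearts were taken 8 weeks after surgery, and tamoxifen was given from 2 weeks after surgery to activate Cre in CIP-OE mice. Animals are named by their labels, where KI stands for CIP-OE. Since the controls had no Cre, an effect of CIP and an effect of activated Cre cannot be told apart. The labels give no time of day at collection, no sex and no batch, so a difference in the hour of collection between groups and an effect of the groups themselves cannot be told apart for any clock gene.

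In the mammalian clock, ARNTL (also called BMAL1) pairs with CLOCK or NPAS2 and switches on genes that carry E-boxes, among them the Per and Cry genes, Nr1d1, Nr1d2 and Dbp. PER and CRY proteins then shut their own activator down, and the REV-ERB receptors encoded by Nr1d1 and Nr1d2 repress Arntl, which closes a daily loop. In the mouse heart most cells run this loop, with Arntl transcripts peaking at about the opposite time of day to Dbp and the Per transcripts, so that the levels of these genes in a heart depend strongly on when it was collected.

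The libraries held between 6990445 and 7704812 reads in genes, of which mitochondrial genes took 33.9 to 54.0%. Mlip, the gene for CIP, had 5909 to 8232 normalized counts in CIP-OE-TAC hearts and 1910.5 to 5492 in CIP-OE-Sham hearts, against 823 to 936 in Ctrl-TAC and 926 to 1322 in Ctrl-Sham hearts, so all 12 libraries stood on the side of their genotype label. Of 8 cardiomyocyte markers none was at 0 in any library, and their summed level lay between 229159 and 266129 in CIP-OE-TAC, between 267205 and 320961 in CIP-OE-Sham, between 216852 and 264323 in Ctrl-TAC and between 269377 and 295613 in Ctrl-Sham libraries. The 6 fibroblast markers summed to 6378 to 12143, 4666 to 6097, 8990 to 14746 and 4620 to 5431 in the same 4 groups, and the 6 endothelial markers to 3975 to 4730, 4118 to 5160, 4920 to 5926 and 3827 to 3879. Between Ctrl-TAC and Ctrl-Sham hearts, 4 of the 6 fibroblast and 4 of the 6 endothelial markers were higher by the test described below, where 20.7% of all genes were higher and 20.2% lower. Of the 8 cardiomyocyte markers 1 was higher and 3 lower, and of the 5 smooth muscle and pericyte markers 2 were higher and 2 lower. The part of these cell type markers in the clock gene values was not tested. In whole heart RNA, fewer cells of a type and less RNA per cell cannot be told apart. The libraries also differed in the level of GC-rich genes relative to GC-poor genes. The measure was the median of the upper tertile of genes by GC content minus that of the lower tertile, each gene relative to its mean over the libraries. On the log2 scale it lay between -0.20 and 0.02 in CIP-OE-TAC and between 0.49 and 0.75 in Ctrl-TAC libraries. It lay between -0.24 and 0.02 in CIP-OE-Sham and between -0.46 and -0.21 in Ctrl-Sham libraries. Whether coverage in sequencing or expression of such genes differed was not tested, and GC coverage below stands for this measure. By GC content of the longest transcript, the clock genes ranged widely, with Clock and Nr1d2 at the 9.23 and 12.2 percentiles of the tested genes and Nr1d1, Per1 and Dbp at the 86.6, 94.8 and 98.2 percentiles. Calls that changed when every library was corrected for GC content are therefore given both ways.

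Promoter sequence was available for 9 of the 10 genes, as 13 windows from 250 bases before to 50 bases after a transcription start (RefSeq, build GRCm38.p6), and was searched on both strands for the E-box CACGTG, the D-box TTATGTAA or TTACGTAA, the cAMP response element TGACGTCA and the ROR element, the site through which REV-ERB and ROR receptors act on Arntl. Sequences of Arntl, Per3 and Nr1d2 are shown because Arntl and Per3 ran opposite to each other across the libraries and Nr1d2 differed most firmly between the groups, and capitals mark matches to these motifs. Arntl has 2 windows, and the one shown lies at chr7:113207261-113207560 on the plus strand, that of Per3 at chr4:151044616-151044915 and that of Nr1d2 at chr14:18239057-18239356, both on the minus strand and written 5′ to 3′.
Arntl: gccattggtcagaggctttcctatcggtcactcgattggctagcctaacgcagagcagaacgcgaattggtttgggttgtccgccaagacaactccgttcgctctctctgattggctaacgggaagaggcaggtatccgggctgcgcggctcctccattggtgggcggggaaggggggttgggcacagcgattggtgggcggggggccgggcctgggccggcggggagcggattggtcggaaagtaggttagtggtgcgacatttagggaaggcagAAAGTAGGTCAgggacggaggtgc
Per3: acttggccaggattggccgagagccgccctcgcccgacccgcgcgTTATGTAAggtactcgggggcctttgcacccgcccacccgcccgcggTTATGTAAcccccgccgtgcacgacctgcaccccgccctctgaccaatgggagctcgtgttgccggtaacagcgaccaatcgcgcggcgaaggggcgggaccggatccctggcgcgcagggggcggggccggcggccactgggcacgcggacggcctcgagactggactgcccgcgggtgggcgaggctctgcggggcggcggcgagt
Nr1d2: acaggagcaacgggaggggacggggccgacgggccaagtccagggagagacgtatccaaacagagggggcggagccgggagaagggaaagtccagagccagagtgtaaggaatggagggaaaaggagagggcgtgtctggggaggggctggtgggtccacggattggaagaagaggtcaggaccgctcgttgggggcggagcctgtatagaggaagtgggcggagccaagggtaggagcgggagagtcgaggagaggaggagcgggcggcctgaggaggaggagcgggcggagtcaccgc
This Arntl window holds 1 match to the searched form of the ROR element, AAAGTAGGTCA, while the other, at chr7:113207215-113207514, holds none. Both Arntl windows also hold AAAGTAGGTTA, which differs from that match in 1 letter and was not counted. These counts therefore do not give the number of ROR elements in the Arntl promoter. The searched form was found in 0.384% of the 32851 promoter windows of all genes. The Per3 window holds 2 D-boxes, a motif found in 1.06% of all windows. The Nr1d2 window has no match to any of the 4 motifs, and of the other members only Per1 had one, an E-box that 7.15% of all windows share. No window of a clock gene held the cAMP response element, which 1.79% of all windows carry. These matches describe letters in a short window, and no binding was measured.

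The 10 genes differed widely in level. Per kilobase of annotated exon, the mean in Ctrl-Sham hearts was 254 normalized counts for Nr1d1, 229 for Dbp and 207 for Nr1d2, then 73.4 for Per1, 48.5 for Per2, 37.8 for Per3, 33.8 for Cry2 and 28.7 for Clock, and only 3.22 for Npas2 and 1.29 for Arntl. Arntl was counted from 1 to 140 reads in a library and Npas2 from 8 to 51, so that these genes carry the largest counting error of the set. All further values are normalized counts, that is reads scaled by 1 factor per library, and are not set per length.

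**Figure D1:**
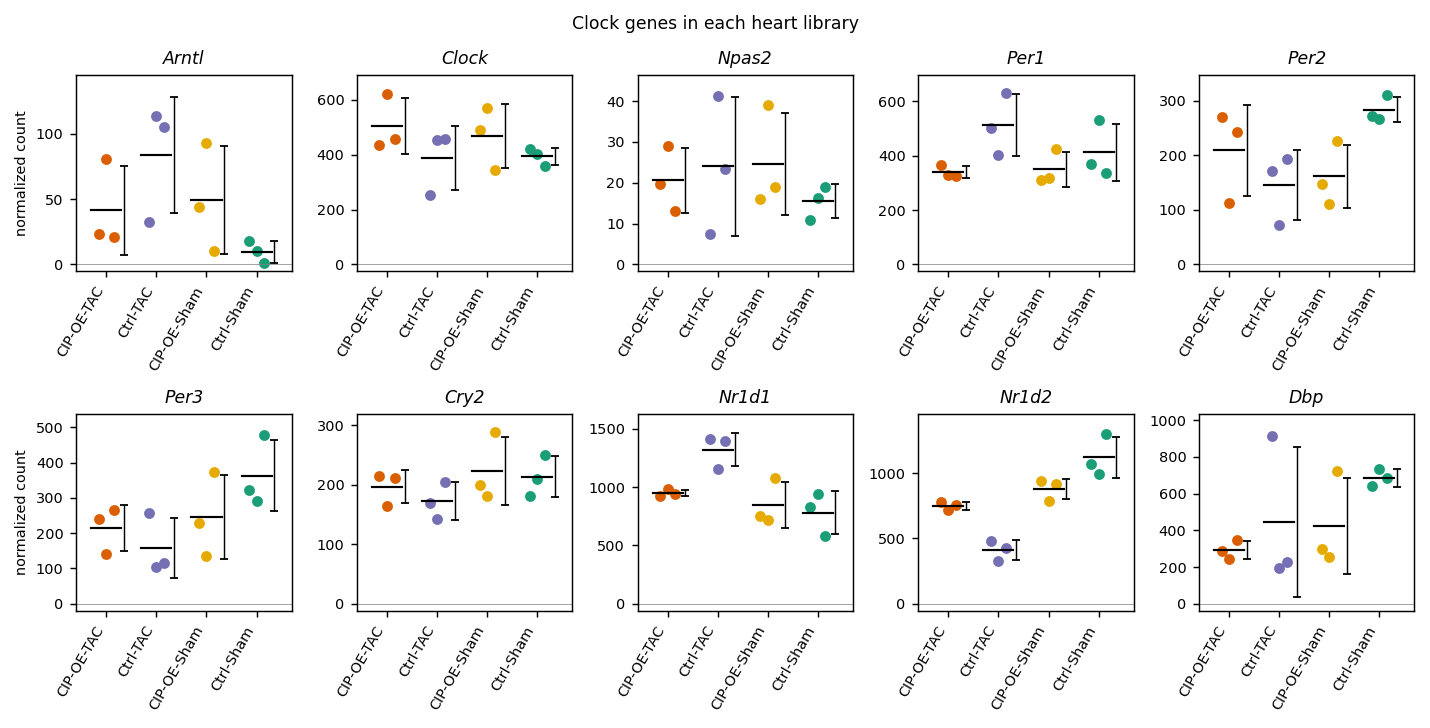
Normalized count (y axis, linear) of each of the 10 clock genes in the 12 heart libraries, grouped by genotype and surgery on the x axis, with 3 points per group, a bar at the mean and an error bar of 1 SD. The Ctrl-TAC libraries lie apart from all others in Nr1d2 (329 to 480.3) and in Nr1d1 (1158 to 1412), while for Arntl, Dbp and Per3 the points of a single group spread over much of the range.

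Nr1d2, which encodes the repressor REV-ERB beta, was the only one of the 10 clock genes without overlap between any of the groups. It had 775, 719 and 755 normalized counts in KI_TAC_3577, KI_TAC_3579 and KI_TAC_3587, against 480.3, 329 and 425 in Ctrl_TAC_3586, Ctrl_TAC_3800 and Ctrl_TAC_4231. The sham-operated hearts had 936, 789 and 913 in KI_Sham_3643, KI_Sham_3644 and KI_Sham_3737 and 1073, 993 and 1298 in Ctrl_Sham_4010, Ctrl_Sham_4011 and Ctrl_Sham_4033. The 4 groups did not overlap, in the order Ctrl-Sham, CIP-OE-Sham, CIP-OE-TAC and Ctrl-TAC from high to low. Of the neighbouring steps, CIP-OE-Sham versus Ctrl-Sham (limma adjusted p = 0.368) and CIP-OE-TAC versus CIP-OE-Sham (limma adjusted p = 0.574) did not pass the test described below. How many of all tested genes lack overlap was not counted, here or for any groups said below not to overlap. Nr1d2 lies on the minus strand of chromosome 14 at chr14:18204054-18239127 (GRCm38).

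In CIP-OE-TAC versus Ctrl-TAC hearts, which asks what CIP overexpression changed under pressure overload, 1 of the 10 clock genes was higher and 1 lower at an adjusted p under 0.05, where 9.11% of all tested genes were higher and 9.27% lower (limma with Benjamini-Hochberg adjustment over 13392 genes). Nr1d2 averaged 749.7 ± 28.4 in CIP-OE-TAC and 411.5 ± 76.5 in Ctrl-TAC hearts (SD, n = 3 each), a log2 fold change of 0.88 (SE 0.143, limma adjusted p = 8.86e-04). The call held without each of the 12 libraries, but not after correction for GC content, where the log2 fold change was 0.53 (limma adjusted p = 0.0525). Every Ctrl-TAC library had a higher GC value (0.49 to 0.75) than every CIP-OE-TAC library (-0.20 to 0.02). GC coverage and genotype therefore cannot be told apart in this comparison. Per1, a PER repressor that also responds acutely to light and glucocorticoids, was lower, with 366, 328 and 325 normalized counts in CIP-OE-TAC hearts and 503, 404 and 630.1 in Ctrl-TAC hearts, which do not overlap. Its log2 fold change was -0.57 (SE 0.181, limma adjusted p = 0.0360). The Per1 call was lost without any of Ctrl_TAC_3586 (limma adjusted p = 0.0984) or Ctrl_TAC_4231 (0.125) or KI_TAC_3577 (0.0568), KI_TAC_3579 (0.110) or KI_TAC_3587 (0.0969), and after GC correction the log2 fold change was -0.02.

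The remaining 8 clock genes did not pass in that comparison. Nr1d1, which encodes REV-ERB alpha, had 926, 983 and 939 normalized counts in CIP-OE-TAC hearts and 1412, 1158 and 1393 in Ctrl-TAC hearts. These groups do not overlap either, with a log2 fold change of -0.47 (SE 0.170, limma adjusted p = 0.0603), and DESeq2 on recovered reads placed it below the threshold (adjusted p = 0.0428). It also passed in limma without Ctrl_Sham_4033 (adjusted p = 0.0345) or KI_Sham_3737 (0.0358). The median log2 fold change over the 10 genes was 0.10, against 0.01 over all tested genes. Clock, the partner of ARNTL, had 435, 623 and 459 normalized counts in CIP-OE-TAC hearts and 253, 453 and 456 in Ctrl-TAC hearts, which overlap. Its log2 fold change was 0.41 (SE 0.233), and that of Npas2, which can take the place of CLOCK, was 0.01 (SE 0.498). Npas2 had 13.2 to 29.1 normalized counts in CIP-OE-TAC hearts, inside the range of 7.39 to 41.3 in Ctrl-TAC hearts. Per2 had 271, 113 and 243 in CIP-OE-TAC hearts, Per3 had 240.2, 142 and 265, and Dbp had 289, 243 and 345, each overlapping the Ctrl-TAC values given below. Among the repressors the log2 fold change was 0.54 (SE 0.438) for Per2, 0.52 (SE 0.462) for Per3 and 0.19 (SE 0.183) for Cry2, with limma adjusted p from 0.431 to 0.493. Arntl had -1.09 (SE 1.07) and Dbp -0.24 (SE 0.598) on the log2 scale, with limma adjusted p of 0.524 and 0.816, and for Arntl the SE is about as large as the estimate. The estimate for Dbp changed sign without Ctrl_TAC_3586 (0.46) and after GC correction (0.44).

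The response to pressure overload itself was read in control hearts. In Ctrl-TAC versus Ctrl-Sham hearts, 2 of the 10 were higher, where 20.7% of all genes were, and 1 was lower, where 20.2% of all genes were. Nr1d2 fell to 411.5 ± 76.5 normalized counts in Ctrl-TAC hearts, against 1121 ± 158 in Ctrl-Sham hearts (SD, n = 3 each), a log2 fold change of -1.45 (SE 0.143, limma adjusted p = 7.73e-07) that remained past the threshold in all 25 alternatives run, with values between -1.57 and -0.95. Nr1d1 moved the other way, with 1412, 1158 and 1393 in Ctrl-TAC hearts and 828, 936 and 580 in Ctrl-Sham hearts. Its log2 fold change of 0.78 (SE 0.170, limma adjusted p = 0.00141) held without each library and was lost after GC correction, at 0.18 (adjusted p = 0.439).

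Arntl, the core activator, had 32.3, 113 and 105 normalized counts in Ctrl_TAC_3586, Ctrl_TAC_3800 and Ctrl_TAC_4231, against 17.9, 10.2 and 1.06 in Ctrl_Sham_4010, Ctrl_Sham_4011 and Ctrl_Sham_4033. The groups do not overlap, and they rest on 296 reads in all for Ctrl-TAC and 29 for Ctrl-Sham, of which Ctrl_Sham_4033 gave 1. The log2 fold change on the log2(value + 1) scale was 3.29 (SE 1.07, limma adjusted p = 0.0367), and it depends on that low library: without Ctrl_Sham_4033 it was 2.35 (adjusted p = 0.112). The call was also lost without Ctrl_Sham_4011 (3.57, adjusted p = 0.0580), Ctrl_TAC_3800 (2.97, 0.101) or Ctrl_TAC_4231 (3.03, 0.0956), or KI_Sham_3643 (3.29, 0.0506), and after GC correction (3.36, limma adjusted p = 0.0543), while its direction held in all alternatives.

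Several targets of ARNTL stood lower in Ctrl-TAC hearts without passing the test on the deposited scale. Per3, whose protein is a PER family member, had 256, 105 and 115 normalized counts in Ctrl-TAC hearts and 322, 290.1 and 478 in Ctrl-Sham hearts, with no overlap, a log2 fold change of -1.28 (SE 0.462) and a limma adjusted p of 0.0529. Without Ctrl_TAC_3586 it was -1.69 (adjusted p = 0.0179), and it also passed without KI_Sham_3644 (0.0306) or KI_Sham_3737 (0.0316) or KI_TAC_3579 (0.0499). Per2, a core repressor, had 172, 72.9 and 193 in Ctrl-TAC hearts and 273, 268 and 311 in Ctrl-Sham hearts, again with no overlap and a log2 fold change of -1.07 (SE 0.438, limma adjusted p = 0.0785, and 0.0354 without KI_TAC_3579). Dbp, a PAR bZIP transcription factor that binds D-boxes, had 193 and 228 in Ctrl_TAC_3800 and Ctrl_TAC_4231 but 913 in Ctrl_TAC_3586, the highest of all 12 libraries, against 639, 736 and 683 in Ctrl-Sham hearts. Its log2 fold change of -0.996 (SE 0.598, limma adjusted p = 0.218) became -1.70 (adjusted p = 0.0113) without Ctrl_TAC_3586. Cry2, the cryptochrome repressor, had 142 to 205 in Ctrl-TAC and 182 to 249 in Ctrl-Sham hearts. The log2 fold change was -0.31 (SE 0.183) for Cry2, 0.31 (SE 0.181) for Per1, 0.36 (SE 0.498) for Npas2 and -0.07 (SE 0.233) for Clock, with limma adjusted p from 0.174 to 0.828. Per1 passed without Ctrl_Sham_4011 (0.51, adjusted p = 0.0319), and without Ctrl_TAC_3586 the estimate for Clock was 0.21.

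After correction of every library for GC content, 6 of the 10 clock genes passed in Ctrl-TAC versus Ctrl-Sham hearts, all of them lower, where 21.4% of all genes passed under the same correction (1258 higher and 1605 lower). These were Nr1d2 with a log2 fold change of -0.98, Dbp with -1.94, Per3 with -1.54, Per2 with -1.48, Cry2 with -0.82 and Per1 with -0.48 (limma adjusted p from 1.43e-04 to 0.0390). Arntl was then 3.36 and Clock 0.44, neither of which passed. The GC-rich members Dbp, Per1, Nr1d1 and Cry2 all moved down with the correction and the GC-poor members Nr1d2 and Clock up, and GC coverage and surgery cannot be told apart in these groups, since every Ctrl-TAC library had a higher GC value than every Ctrl-Sham library.

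**Figure D2:**
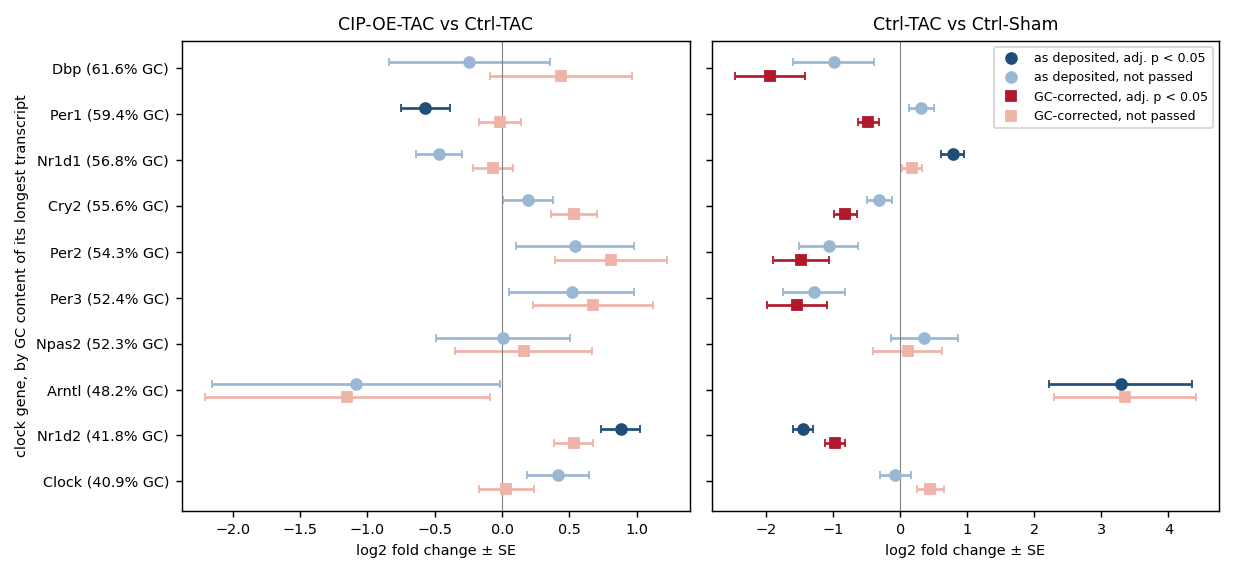
Log2 fold change (x axis) with its SE for the 10 clock genes, ordered on the y axis by GC content, in CIP-OE-TAC versus Ctrl-TAC (left) and Ctrl-TAC versus Ctrl-Sham (right), from the deposited values (circles) and after GC correction (squares), dark where the adjusted p was under 0.05. For Nr1d2 in the right panel both are dark, at -1.45 and -0.98, and for Nr1d1 only the circle is, at 0.78.

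The comparison of CIP-OE and control hearts without pressure overload gave no call among the clock genes. In CIP-OE-Sham versus Ctrl-Sham hearts 0 of 10 passed in limma, where 0.0149% of all genes were called higher and 0.00747% lower. In edgeR 0 passed and in DESeq2 0, where 3 and 66 of all 13392 genes did. An unadjusted limma p under 0.05 was reached by 1 of the 10 and by 1503 of the 13392. That clock gene was Nr1d2, with a log2 fold change of -0.35 (SE 0.143, limma adjusted p = 0.368). Mlip, the gene for CIP itself, did not pass in this comparison either, at 1.79 (SE 0.339, limma adjusted p = 0.116). A missing call here therefore does not show that a gene was unchanged. Arntl had 44.3, 93.0 and 10.5 normalized counts in CIP-OE-Sham hearts, against 17.9, 10.2 and 1.06 in Ctrl-Sham hearts, which overlap through KI_Sham_3737, and a log2 fold change of 2.27 (SE 1.07). Per2 was at -0.87 (SE 0.438) and Dbp at -0.86 (SE 0.598) on the log2 scale, where Dbp had 296, 252 and 721 in CIP-OE-Sham hearts and the value of 721 came from the same KI_Sham_3737. This animal also had the lowest Mlip of the CIP-OE hearts, 1910.5 normalized counts, against 5492 in KI_Sham_3643 and 4596 in KI_Sham_3644. The part of Mlip level in its clock gene values was not tested.

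Within CIP-OE hearts the surgery likewise gave no call. In CIP-OE-TAC versus CIP-OE-Sham hearts 0 of 10 clock genes passed in limma, where 0.754% of all genes were higher and 0.508% lower. In edgeR 0 passed and in DESeq2 0, where 162 and 355 of all 13392 genes did. An unadjusted limma p under 0.05 was reached by 0 of the 10 and by 1691 of the 13392. The estimates ran from -0.38 (SE 0.598) for Dbp to 0.33 (SE 0.438) for Per2. Nr1d2 did not overlap between these groups (775, 719 and 755 in CIP-OE-TAC against 936, 789 and 913 in CIP-OE-Sham hearts), yet its log2 fold change was only -0.23 (SE 0.143). In CIP-OE-TAC versus Ctrl-Sham hearts, 0 clock genes were higher and 1 lower, where 3.23% and 2.39% of all genes were. This was Nr1d2, with a log2 fold change of -0.57 (SE 0.143, limma adjusted p = 0.0236). The call was lost without Ctrl_Sham_4010 (adjusted p = 0.0713) or Ctrl_Sham_4033 (0.124) or KI_TAC_3577 (0.0727), KI_TAC_3579 (0.0557) or KI_TAC_3587 (0.0818), and after GC correction at -0.45 (0.0905). Arntl was at 2.20 (SE 1.07), Dbp at -1.24 (SE 0.598) and Per3 at -0.77 (SE 0.462) in this comparison, with limma adjusted p from 0.288 to 0.399. The CIP-OE-TAC libraries enter both of these comparisons, and the earlier ones share Ctrl-TAC or Ctrl-Sham libraries, so the values are not independent of one another.

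The interaction test asked whether the difference between CIP-OE and control hearts changed with surgery. It passed for 1 clock gene, which was higher, and for 0 lower, where 5.43% and 6.18% of all genes passed. For Nr1d2 the genotype effect after TAC minus that after sham surgery was 1.23 on the log2 scale (SE 0.203, limma adjusted p = 0.00188). It held without each library and was 0.75 after GC correction (adjusted p = 0.102). The same difference was -3.36 (SE 1.51) for Arntl, 1.41 (SE 0.620) for Per2, 1.17 (SE 0.654) for Per3 and -0.59 (SE 0.241) for Nr1d1, with limma adjusted p from 0.110 to 0.270.

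Nr1d1 and Nr1d2 are paralogs that the clock drives alike, and their ratio within a library needs no scaling between libraries. The ratio is not free of GC coverage, since Nr1d1 lies at the 86.6 and Nr1d2 at the 12.2 percentile of GC content. Nr1d1 had 1.19 to 1.37 reads for each read of Nr1d2 in CIP-OE-TAC libraries and 2.94 to 3.52 in Ctrl-TAC libraries. In sham-operated hearts the ratio was 0.804 to 1.18 in CIP-OE and 0.447 to 0.943 in Ctrl libraries. The Ctrl-TAC libraries thus stood apart from the other 9, and they also had the highest values of the GC measure. GC coverage and group therefore cannot be told apart in this ratio. Exons of Nr1d1, on the minus strand at chr11:98767932-98775333, share 263 of 3077 bases with Thra, the thyroid hormone receptor gene on the opposite strand. Thra had 393, 387 and 429 normalized counts in CIP-OE-TAC hearts and 572, 569 and 483 in Ctrl-TAC hearts, giving a log2 fold change of -0.42 (SE 0.135, limma adjusted p = 0.0357), and a log2 fold change of 0.60 (SE 0.135, adjusted p = 0.00160) in Ctrl-TAC versus Ctrl-Sham hearts. No source used here says whether the counting used strand, so reads of this overlap cannot be assigned to either gene.

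**Figure D3:**
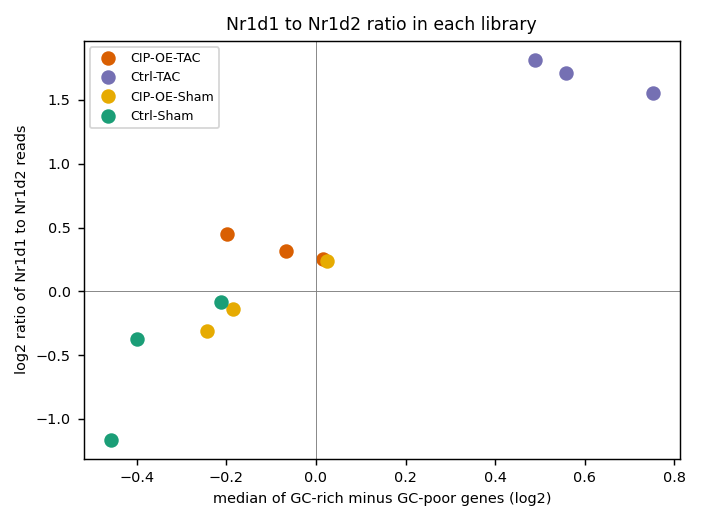
Log2 ratio of Nr1d1 to Nr1d2 reads (y axis) against the median of GC-rich minus GC-poor genes (x axis, log2) in the 12 libraries, coloured by group. The 3 Ctrl-TAC libraries lie at the upper right, with ratios of 2.94 to 3.52 and GC values of 0.49 to 0.75.

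Exon overlaps touch 3 other clock genes. Dbp, at chr7:45705088-45710203 on the plus strand, shares 539 of 2993 exon bases with Sphk2 on the minus strand, a sphingosine kinase gene whose log2 fold change was -0.38 (SE 0.204) in CIP-OE-TAC versus Ctrl-TAC and 0.45 (SE 0.204) in Ctrl-TAC versus Ctrl-Sham hearts, opposite in sign to Dbp in the second. Cry2, at chr2:92403646-92434043 on the minus strand, shares 295 of 6320 exon bases with the transcript D930015M05Rik, and Arntl, at chr7:113207465-113314126 on the plus strand, shares 33 of 7523 with the antisense gene Gm45355.

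The members were also compared inside each group. In each of the 4 groups the library with the most Arntl was found (KI_TAC_3579 in CIP-OE-TAC, KI_Sham_3644 in CIP-OE-Sham, Ctrl_TAC_3800 in Ctrl-TAC and Ctrl_Sham_4010 in Ctrl-Sham), and the other members were ranked in it. Dbp and Cry2 were lowest of the 3 animals in that library in all 4 groups, as were 1.61% of all tested genes. Per2, Per3 and Nr1d2 were lowest there in 3 of the 4 groups, and 12.1% of all genes were lowest in at least 3. Clock and Npas2 were highest there in 3 of the 4 groups, and 11.5% of all genes were highest in at least 3. Per1 was lowest there in 1 group, and Nr1d1 was lowest in 2 groups and highest in 1. The exceptions for the other members were Clock, which was in the middle in Ctrl_TAC_3800, Npas2, which was lowest in Ctrl_Sham_4010, and Per2, Per3 and Nr1d2, which were in the middle in Ctrl_Sham_4010. The library was chosen by Arntl and each group has only 3 animals, so these counts are a description.

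Across the 12 libraries Per3 ran most nearly opposite to Arntl among the members. The Pearson r of log2(value + 1) was -0.94 (Spearman rho -0.97), and -0.90 after the mean of each group was subtracted, so the relation was also present between animals of the same group. Per2 had r = -0.80 with Arntl, Dbp -0.75, Nr1d2 -0.74 and Cry2 -0.71, while Clock had 0.52 and Npas2 0.45. Within groups the values were -0.65 for Per2, -0.67 for Dbp, -0.70 for Nr1d2, -0.78 for Cry2, 0.83 for Clock and 0.43 for Npas2. Per1 (0.09, and -0.09 within groups) did not follow either side, and Nr1d1 had 0.50 over all libraries and 0.00 within groups. The points share libraries, group differences and the GC measure, and no p is attached to these values. Relative to its lowest value, the widest range of a member within a group was that of Arntl in Ctrl-Sham hearts, from 1.06 in Ctrl_Sham_4033 to 17.9 in Ctrl_Sham_4010, followed by Arntl in CIP-OE-Sham hearts, from 10.5 to 93.0. Nr1d1 and Nr1d2 in CIP-OE-TAC hearts had the smallest spread of the members, with coefficients of variation of 3.13% and 3.78%, against 82.1% for Arntl in the same 3 animals.

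**Figure D4:**
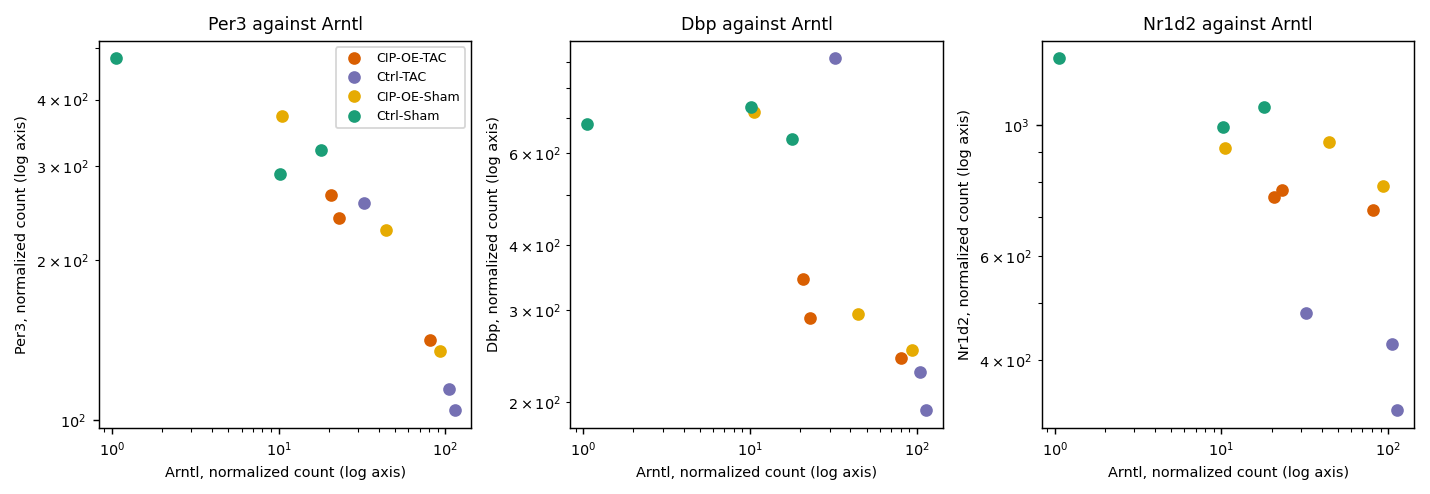
Normalized counts of Per3, Dbp and Nr1d2 (y axes, log scale) against Arntl (x axis, log scale) in the 12 libraries, coloured by group. Per3 was at 478 in the library with 1.06 of Arntl and at 105 in that with 113, Ctrl_TAC_3586 lies above the other points for Dbp at 913, and the Ctrl-TAC animals lie lowest for Nr1d2.

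Among the 8582 genes with a mean of at least 50 that are neither members nor pseudogenes or predicted genes, those most like Arntl over the 12 libraries were Rdh13 (r = 0.92), Soga1 (0.91), Ankrd11 (0.90), Trmt1l (0.89) and Fam193a (0.89), with 0.94, 0.81, 0.79, 0.91 and 0.80 after group means were subtracted. Those most like Dbp were Kctd2 (r = 0.90), Smim20 (0.87), Atp5e (0.87), Sf3b6 (0.86) and Tcap (0.86), with 0.91, 0.80, 0.87, 0.82 and 0.84 within groups. Of these, Tcap, which encodes the sarcomere protein telethonin, is also on the list of cardiac genes with a known daily rhythm.

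Of 20 other clock genes, 19 were tested, since Fbxl21 did not pass the filter. In CIP-OE-TAC versus Ctrl-TAC hearts 0 of the 19 passed in limma, beside 9.11% of all genes higher and 9.27% lower. In edgeR 0 passed and in DESeq2 0, where 2565 and 2433 of all 13392 genes did. An unadjusted limma p under 0.05 was reached by 3 of the 19 and by 4445 of the 13392. The median log2 fold change of the 19 was 0.18, against 0.01 over all genes. In Ctrl-TAC versus Ctrl-Sham hearts 3 of the 19 were higher and 6 lower, beside 20.7% and 20.2% of all genes, with a median of -0.28, against 0.00 over all genes. Hlf, a PAR bZIP factor related to Dbp, had 262, 172 and 208 normalized counts in CIP-OE-TAC, 174, 59.2 and 92.0 in Ctrl-TAC and 390.2, 395 and 576 in Ctrl-Sham hearts. Its CIP-OE-Sham values of 208, 167 and 430 overlapped those of each of these groups. Its log2 fold change was -2.17 (SE 0.440, limma adjusted p = 0.00387) in Ctrl-TAC versus Ctrl-Sham and 1.09 (SE 0.440, adjusted p = 0.119) in CIP-OE-TAC versus Ctrl-TAC hearts, where it passed without Ctrl_TAC_3586 (adjusted p = 0.0496). Tef, the third PAR bZIP factor, fell by 0.77 on the log2 scale in Ctrl-TAC versus Ctrl-Sham hearts (SE 0.223, adjusted p = 0.0136), a call lost without Ctrl_Sham_4033 (adjusted p = 0.0584) or Ctrl_TAC_3800 (0.0559). Rora, the receptor that activates Arntl at ROR elements, fell by 0.62 (SE 0.141, adjusted p = 0.00163), but by 0.10 after GC correction (adjusted p = 0.601). The deubiquitinase gene Usp2 had -0.28 (SE 0.149, adjusted p = 0.136), and passed without Ctrl_TAC_4231 (-0.40, 0.0416) and after GC correction (-0.63, 0.00381). After GC correction 5 of the 19 passed, 1 higher and 4 lower, beside 21.4% of all genes in either direction.

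The list of cardiac genes with a known daily rhythm had 10 tested members. In CIP-OE-TAC versus Ctrl-TAC hearts 3 of the 10 were higher and 0 lower, beside 9.11% and 9.27% of all genes, with a median of 0.03. In Ctrl-TAC versus Ctrl-Sham hearts 0 were higher and 4 lower, beside 20.7% and 20.2% of all genes, with a median of -0.33. Wee1, a cell cycle kinase gene driven by E-boxes, had 84.1, 84.4 and 112 normalized counts in CIP-OE-TAC, 52.6, 54.3 and 55.5 in Ctrl-TAC and 184, 166 and 191 in Ctrl-Sham hearts. These 3 groups did not overlap. The CIP-OE-Sham hearts, with 98.5, 75.7 and 172, overlapped both CIP-OE-TAC and Ctrl-Sham hearts. The log2 fold change was -1.71 (SE 0.222, limma adjusted p = 1.26e-05) in Ctrl-TAC versus Ctrl-Sham hearts. In CIP-OE-TAC versus Ctrl-TAC it was 0.76 (SE 0.222, adjusted p = 0.0231), a call lost without Ctrl_TAC_3586 (adjusted p = 0.0683) or Ctrl_TAC_3800 (0.0501) or KI_TAC_3587 (0.0951), and after GC correction (0.78, 0.0563). Nampt, the rate-limiting enzyme of NAD salvage, changed by -1.06 (SE 0.165, adjusted p = 7.59e-05) and 0.71 (SE 0.165, adjusted p = 0.00750) in these comparisons, where the second was 0.31 after GC correction (0.291). The abundant members Pdk4 and Tcap did not pass in either, with 1.46 (SE 0.831) and -0.36 (SE 0.436) in Ctrl-TAC versus Ctrl-Sham hearts and -0.64 and -0.28 in CIP-OE-TAC versus Ctrl-TAC hearts.

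Acute stimuli can also move Per1, so glucocorticoid response genes and immediate early genes were counted beside it. Of 10 glucocorticoid response genes, a list that includes Per1 itself, 0 were higher and 2 lower in CIP-OE-TAC versus Ctrl-TAC hearts (median -0.04), beside 9.11% and 9.27% of all genes. Of the same 10, 3 were higher and 1 lower in Ctrl-TAC versus Ctrl-Sham hearts, beside 20.7% and 20.2% of all genes. Their median was 0.38, against 0.00 over all genes, with 8 estimates above 0 and 2 below. The metallothionein gene Mt1 was at -0.98 (SE 0.283, limma adjusted p = 0.0338) and 1.36 (SE 0.283, adjusted p = 0.00277), where the first call was lost without Ctrl_TAC_3586 (0.134) or Ctrl_TAC_4231 (0.0887), without KI_TAC_3577 (0.0611) or KI_TAC_3579 (0.119) and after GC correction (0.162). Klf9, a zinc finger gene induced by glucocorticoids, was at 0.10 (SE 0.151) and -0.45 (SE 0.151, adjusted p = 0.0227), the second lost without Ctrl_Sham_4010 (0.0954) or Ctrl_Sham_4011 (0.0678) or Ctrl_TAC_3586 (0.137) and after GC correction (0.115). Of 9 immediate early genes tested, 0 were higher and 2 lower in CIP-OE-TAC versus Ctrl-TAC hearts, beside 9.11% and 9.27% of all genes, with a median of -0.97. Of the same 9, 4 were higher and 0 lower in Ctrl-TAC versus Ctrl-Sham hearts, beside 20.7% and 20.2% of all genes, with a median of 1.30. Junb, an AP-1 subunit gene, was at -1.35 (SE 0.247, adjusted p = 0.00236) and 1.63 (SE 0.247, adjusted p = 8.96e-05), neither of which passed after GC correction (0.161 and 0.0643). Jun was at -0.86 (SE 0.261, adjusted p = 0.0374) and 1.70 (SE 0.261, adjusted p = 2.74e-04), where the first call was lost without any 1 library of the 2 groups except Ctrl_TAC_3586, without KI_Sham_3644, and after GC correction (adjusted p from 0.0514 to 0.336 in these). Egr1 did not pass in either comparison, at -0.97 (SE 0.585) and 1.30 (SE 0.585), except in the second without Ctrl_TAC_3586 (1.80, adjusted p = 0.0419) and with DESeq2 (0.0196). The part of these genes in the Per1 values was not tested.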

How the data were processed

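Heart RNA-seq of 12 mice in 4 groups of 3 was used, with groups and animal numbers taken from the sample labels. The deposited table holds a normalized signal per gene, which the authors made by dividing gene counts by 1 size factor per library. The submitters' processing notes list DESeq2 1.4.5, StringTie 2.1.4 and HISAT2 2.0.4, with build GRCm38, whereas the study's methods name STAR and featureCounts. The sources used here give no strand setting. Every value was a whole read count after division by the value of 1 read (100% within 0.001). That value was 0.810 to 1.23 normalized counts, depending on the library. Of 54515 rows, 633 duplicates were removed. Libraries of 1 group differed by more than sampling noise (chi-square per degree of freedom 3.85 to 24.6). That animals were separate is taken from their numbers.

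Genes that reached 10 normalized counts in 3 or more libraries were tested on log2(value + 1) with limma 3.58.1 (R 4.3.3; trend, robust) in 1 fit of all libraries, with Benjamini-Hochberg adjustment and a threshold of 0.05. A pseudocount understates the change of low genes. The log2 fold changes are therefore on the log2(value + 1) scale. Alternatives were pseudocounts of 0.1 and 5, other filters and scalings, edgeR 4.0.16 and DESeq2 1.42.0 on the recovered reads, a spline correction of each library for GC content (known for 99.0% of tested genes), the groups compared alone, and leaving out each library. Correction for GC content and length was added after seeing the data. The procedure was tested on simulated data, where it recovered 20.9% of 1.5-fold, 62.7% of 2-fold and 84.8% of 4-fold changes for CIP-OE-TAC versus Ctrl-TAC hearts in a fit of 13181 genes. Only 67, 67 and 66 genes were changed by these folds, whereas 1220 genes were called higher and 1242 lower in the data. No GC difference between groups was simulated. These shares therefore need not hold for the data. Named genes were all 10 members, for each list the 2 most abundant genes and the 2 with the smallest p in CIP-OE-TAC versus Ctrl-TAC or Ctrl-TAC versus Ctrl-Sham, and the 5 genes most like Arntl and Dbp. The members and lists were chosen with earlier results of these data known. Coordinates and exons are from GENCODE M21 (GRCm38), and promoters from RefSeq.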

Additional observations from a re-analysis of the deposited data

Results flagged for a closer look

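On the deposited values, the difference in Nr1d2 between CIP-OE and control hearts was not the same after TAC and after sham surgery. Effects of CIP, of activated Cre, of the hour of collection and of GC coverage cannot be told apart in it. The genotype effect after TAC minus that after sham surgery was 1.23 on the log2 scale (limma adjusted p = 0.00188). What drew attention was this difference between the effects in the 2 surgery arms. Nr1d2 was higher in all 3 CIP-OE-TAC hearts than in any Ctrl-TAC heart (719 to 775 against 329 to 480.3 normalized counts) and lower in all 3 CIP-OE-Sham hearts than in any Ctrl-Sham heart (789 to 936 against 993 to 1298). The difference between the sham groups did not pass by itself (log2 fold change -0.35, limma adjusted p = 0.368). After GC correction the difference was 0.75 (adjusted p = 0.102), and after GC and length correction 0.74 (0.107). Groups of 3 animals are too small for the test of single outlying samples, which was not run.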

How the results depend on the processing

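Nr1d2 in Ctrl-TAC versus Ctrl-Sham hearts kept its call in all 25 alternatives. No paired analysis was possible because the groups share no animal numbers. Of the alternatives for single genes, 1384 kept direction and side of the threshold, 73 lost the call, 33 gained one and 27 changed sign. In CIP-OE-TAC versus Ctrl-TAC hearts, where 2 clock genes were called, 1 was called with a fold over 1.5 or with limma without trend, 0 after GC correction, 0 after GC and length correction, and 1 to 3 when 1 library was left out. In Ctrl-TAC versus Ctrl-Sham, where 3 were called, 5 were called with only the groups compared, 6 after either correction, and 2 to 5 with 1 library left out. The genes called after the 2 corrections differed. Clock passed as higher after GC and length correction (0.53, limma adjusted p = 0.0220), but not after GC correction alone. In CIP-OE-TAC versus Ctrl-Sham, where 1 was called, 0 were called with a fold over 1.5, without trend or after either correction, 2 with only the groups compared, and 0 to 1 with 1 library left out. The interaction, with 1 called, gave 0 after either correction and 1 to 1 with 1 library left out, while CIP-OE-Sham versus Ctrl-Sham and CIP-OE-TAC versus CIP-OE-Sham gave 0 to 0. Without filter Arntl in Ctrl-TAC versus Ctrl-Sham had an adjusted p of 0.0692. Signs that changed in CIP-OE-TAC versus Ctrl-TAC were those of Npas2 (-0.033 with pseudocount 5, -0.23 with edgeR and -0.23 with DESeq2), Dbp, Usp2, Rora and Tcap after GC correction (0.44, 0.078, -0.081 and 0.38) and after GC and length correction (0.49, 0.057, -0.20 and 0.51), and Clock and Klf9 after GC and length correction (-0.082 and -0.033). With 1 library left out the estimates there ran from -0.64 to 0.53 for Npas2, -0.66 to 0.46 for Dbp, -0.69 to 0.071 for Tcap and -0.080 to 0.28 for Klf9, each between the values without Ctrl_TAC_3586 and another Ctrl-TAC library, and from -1.26 to 0.063 for Pdk4, the upper end without Ctrl_TAC_4231. In Ctrl-TAC versus Ctrl-Sham they were Clock and Per1 after GC correction (0.44 and -0.48) and after GC and length correction (0.53 and -0.45), with 1 library left out Clock (-0.22 to 0.21), Npas2 (-0.17 to 1.002) and Tcap (-0.71 to 0.049), and in CIP-OE-TAC versus CIP-OE-Sham Dbp (-0.67 to 0.085, the upper end without KI_Sham_3737). Over all genes, GC correction left 212 higher and 254 lower in CIP-OE-TAC versus Ctrl-TAC (1220 and 1242 as deposited), 1258 and 1605 in Ctrl-TAC versus Ctrl-Sham (2776 and 2701), and 55 and 79 in the interaction (727 and 828). DESeq2 called 39 higher and 27 lower in CIP-OE-Sham versus Ctrl-Sham (2 and 1 with limma) and 206 and 149 in CIP-OE-TAC versus CIP-OE-Sham (101 and 68). Totals that left out mitochondrial genes and the 20 with the highest level made 60.3% of calls higher in CIP-OE-TAC versus Ctrl-TAC (49.6% as deposited) and 61.0% in the interaction (46.8%). The cause of these changes was not tested. Low read numbers limit Arntl and Npas2.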
